A study of Caenorhabditis elegans with 11 samples.

Results

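The genes described here encode the TOR kinase of C. elegans, the proteins that define its complexes, the small GTPases that switch it on and the S6 kinase that it phosphorylates. They are let-363 (TOR kinase), daf-15 (Raptor), rict-1 (Rictor), rheb-1 (Rheb), raga-1 (RagA) and rsks-1 (S6 kinase). All 6 were chosen by name, and each matched 1 of the 45461 genes listed with counts. Transcripts were measured by RNA-seq of whole wild-type N2 (var. Bristol) worms, with 3 libraries at each of the ages 1, 5 and 10 days after the L4 larval stage and 2 libraries at 20 days. Every library came from worms that had been on plates with 5 mM DOG, short for 2-deoxy-D-glucose, an analogue of glucose that impairs glycolysis, since L4, fed heat-inactivated E. coli at 20°C, so DOG was shared by all ages and the comparisons below are between ages only. Solvent controls were not analysed here. Each library was a pool of worms from which offspring had been removed by settling, with fewer worms per pool at higher age. The labels do not say whether replicates were separate cultures, so the p-values measure the spread between these libraries, which may be technical.

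TOR is a protein kinase of the PI3K-related family that couples nutrients and growth signals to protein synthesis and autophagy. It works in a pair of complexes. In TORC1 it is bound to Raptor, sits on the lysosome and is activated there by the Rag GTPases, which report amino acids, and by Rheb. Active TORC1 phosphorylates the S6 kinase and represses autophagy. In TORC2 it is bound to Rictor and Sin1 and phosphorylates kinases of the AGC family such as SGK and AKT. In C. elegans, lowering the activity of TOR, Raptor, RagA, Rheb or the S6 kinase is known to lengthen life span, and Rictor is known for roles in fat storage and body size.

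The library depth was 23648292 to 58499127 counts on genes, and all 6 genes were well covered, the lowest count being 1294 for rheb-1 in a library of 1 day and the highest 23970 for rict-1 in a library of 20 days. Levels are given as RPKM, which is the count divided by the exon length of the gene in kilobases and by the TMM-scaled library size in units of 1000000 counts. Changes between ages were tested on the counts with edgeR, and a gene is said to have risen or fallen where the Benjamini-Hochberg adjusted p over the 14773 genes tested was under 0.01. With pools of whole animals, fewer cells of a type and less RNA per cell cannot be told apart. Replicates of an age were not copies of each other, since over the 10 pairs the chi-square statistic was 5.05 to 19.9 times its degrees of freedom.

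Tissue markers moved strongly with age in the same libraries. The summed level of 10 germline and oocyte markers was 7916 to 8254 CPM at 1 day, 10932 to 11036 at 5 days, 9330 to 9549 at 10 days and 8108 to 8202 at 20 days, with no marker at 0. The 8 intestine markers summed to 38629 to 39343 CPM at 1 day, 35224 to 40070 at 5 days, 22396 to 28855 at 10 days and 7424 to 7898 at 20 days. The 5 body muscle markers summed to 3818 to 3922 CPM at 1 day, 897 to 1006 at 5 days, 533 to 576 at 10 days and 497 to 543 at 20 days. At 20 days, against 1 day, 6 hypodermis markers summed to at most 25.7 CPM against 2170 to 2289 CPM, 7 neuron markers to 377 to 382 against 264 to 277 CPM and 7 of 8 embryo markers with any count to 184 to 187 against 143 to 154 CPM, hlh-1 being at 0 in every library. The 8 sperm markers summed to 13.3 to 15.2 CPM at 20 days, with ssp-9 at 0, against 17.5 to 18.3 CPM at 1 day. Between these ages, 2 of 10 germline markers rose and 4 fell, or 5 rose and 1 fell when scaled by library size, and 7 of 8 intestine, 5 of 5 muscle and 5 of 6 hypodermis markers fell. The neuron markers went both ways, with 2 of 7 called higher and 3 lower, or 3 and 3 when scaled by library size. Of 7 embryo markers tested, 4 rose and 2 fell, and of 5 sperm markers tested, 1 rose and 2 fell. Over all genes tested, 38.5% rose and 76.5% were called in either direction between these ages. The part of the marker shifts in the levels of the TOR genes was not tested.

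The 6 transcripts fell into 2 patterns by age. Those of the kinase, its defining partners and the S6 kinase, let-363, daf-15, rict-1 and rsks-1, were higher at 20 days than at 1 day by 1.84-fold to 3.76-fold. Those of the activating GTPases, rheb-1 and raga-1, were highest at 5 days and at 20 days did not pass the test against 1 day. The difference between genes in their change was not tested. Between 1 and 5 days all 6 rose, against 34.5% of all genes tested that were called higher in that interval and 68.4% called in either direction. With TMM scaling, later and earlier libraries did not overlap for any of the 6 genes in any of the 4 comparisons between ages. Scaled by library size, those of let-363 at 20 and 10 days overlapped, as did those of rheb-1 at 20 days and 1 day. Over all genes tested a separation with TMM scaling was frequent. It held for 77.2% at 5 days against 1 day and 62.7% at 10 against 5 days. At 20 days it held for 78.7% against 10 days and 87.7% against 1 day.

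**Figure D1:**
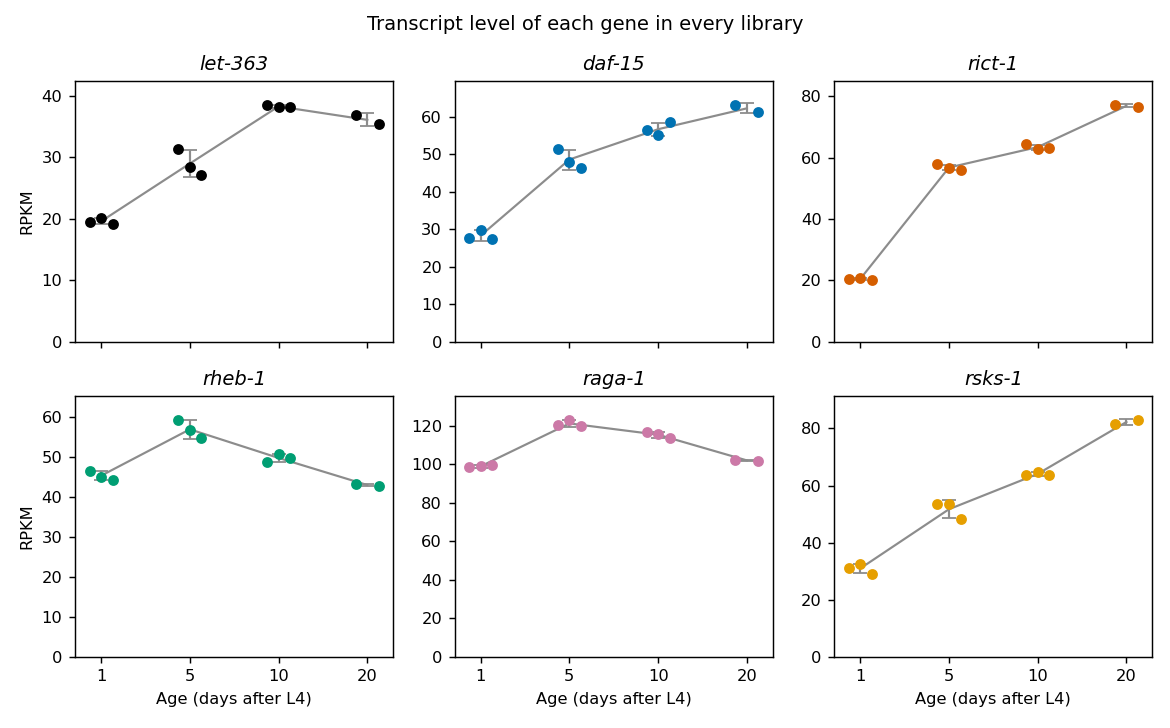
Transcript level of each TOR gene (RPKM, linear axis from 0) against age in days after L4, with ages evenly spaced. Points are libraries, lines join the means and bars are SD (n = 3, and 2 at 20 days). At 20 days rict-1 stood at 76.5 to 77.3 RPKM, against 20.1 to 20.8 at 1 day, while raga-1 was highest at 5 days, at 119.8 to 123.0.

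The TOR kinase gene let-363 (B0261.2, chromosome I) has 8560 exon bases in 32 exon blocks in the annotation of WBcel235. Its level was 19.4, 20.1 and 19.2 RPKM in the libraries of 1 day, 31.3, 28.4 and 27.2 RPKM at 5 days, 38.5, 38.1 and 38.1 RPKM at 10 days and 36.8 and 35.3 RPKM at 20 days. No library of 5 days or later overlapped those of 1 day, and in RPKM both libraries of 20 days lay below all 3 of 10 days. Scaled by library size, the libraries of 20 days (338.9 and 322.4 CPM) lay on either side of those of 10 days (324.1 to 329.0 CPM). The transcript rose at 5 days against 1 day by 0.56 on the log2 scale (SE 0.04, adjusted p = 1.16e-09, edgeR quasi-likelihood test) and at 10 days against 5 days by 0.40 (SE 0.04, adjusted p = 2.41e-07). The change at 20 days against 10 days was -0.08 (SE 0.05) and did not pass (adjusted p = 0.128, edgeR). It turned to 0.02 when libraries were scaled by their total counts. Over the whole span let-363 was 1.84-fold higher at 20 days than at 1 day (log2 change 0.88, SE 0.05, edgeR adjusted p = 2.78e-12).

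Raptor, encoded by daf-15 (C10C5.6, chromosome IV, 5883 exon bases), is the scaffold that brings substrates to TORC1. Its transcript measured 27.6, 29.9 and 27.4 RPKM at 1 day, 51.5, 48.0 and 46.2 RPKM at 5 days, 56.3, 55.1 and 58.4 RPKM at 10 days and 63.1 and 61.2 RPKM at 20 days. No ages overlapped, and the order of the 4 ages was the order of their means. The rise was 0.78 at 5 days against 1 day (SE 0.04, edgeR adjusted p = 1.21e-11) and 0.22 at 10 days against 5 days (SE 0.04, adjusted p = 0.000243) on the log2 scale. The difference of 0.14 at 20 days against 10 days (SE 0.05) missed the threshold (edgeR adjusted p = 0.0195), and the call depended on the processing. It passed without replicate 1 of 5 days (edgeR adjusted p = 0.00751), when only the libraries of these 2 ages were fitted (adjusted p = 0.00171), with library size or upper-quartile scaling (0.000267 and 0.00766) and with 100 counts required in every library (0.00141). It did not pass with DESeq2 (adjusted p = 0.078), with a minimum of 1 count in any library (edgeR adjusted p = 0.0233) or without any other single library, up to an adjusted p of 0.129 without replicate 1 of 20 days. At 20 days daf-15 was 2.20-fold higher than at 1 day (log2 change 1.14, SE 0.05, edgeR adjusted p = 6.14e-14). Of its exon bases, 107 (1.82%) overlap the collagen gene col-121 on the opposite strand, which held 0 to 187 counts per library.

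Rictor, encoded by rict-1 (F29C12.3, chromosome II, 5023 exon bases), defines TORC2. It had the largest change of the 6 transcripts. Its level was 20.5, 20.8 and 20.1 RPKM at 1 day, 57.8, 56.6 and 56.0 RPKM at 5 days, 64.4, 62.9 and 63.1 RPKM at 10 days and 77.3 and 76.5 RPKM at 20 days. The ages did not overlap, and the gap between 5 and 1 days was by far the widest step. At 5 days rict-1 was 2.77-fold higher than at 1 day (log2 change 1.47, SE 0.03, edgeR adjusted p = 1.65e-17). Smaller rises followed at 10 days against 5 days, by 0.16 on the log2 scale (SE 0.03, edgeR adjusted p = 0.000283), and at 20 days against 10 days, by 0.28 (SE 0.04, adjusted p = 1.5e-06). At 20 days it was 3.76-fold higher than at 1 day (log2 change 1.91, SE 0.04, edgeR adjusted p = 3.56e-19), which placed it at percentile 92.7 of the changes of all genes tested. It shares 37 exon bases (0.737%) with col-86 on the same strand, which held 4 to 22 counts.

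The S6 kinase gene rsks-1 (Y47D3A.16, chromosome III, 3050 exon bases) acts downstream of TORC1 on ribosomal and translation proteins. Its transcript measured 31.3, 32.4 and 29.2 RPKM at 1 day, 53.6, 53.4 and 48.2 RPKM at 5 days, 63.9, 64.9 and 63.6 RPKM at 10 days and 81.5 and 83.0 RPKM at 20 days. No ages overlapped, and the highest libraries were those of 20 days. The log2 change was 0.74 at 5 days against 1 day (SE 0.04, edgeR adjusted p = 1.87e-11), 0.31 at 10 days against 5 days (SE 0.04, adjusted p = 4.01e-06) and 0.36 at 20 days against 10 days (SE 0.05, adjusted p = 1.38e-06). At 20 days it was 2.66-fold higher than at 1 day (log2 change 1.41, SE 0.05, edgeR adjusted p = 1.32e-15).

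The GTPase transcripts followed another course. Rheb, which binds TORC1 and activates its kinase, is encoded by rheb-1 (F54C8.5, chromosome III, 1192 exon bases). Its level was 46.5, 45.1 and 44.3 RPKM at 1 day, 59.3, 56.8 and 54.7 RPKM at 5 days, 48.7, 50.8 and 49.8 RPKM at 10 days and 43.1 and 42.8 RPKM at 20 days. In RPKM, the libraries of 5 days were above all others, and those of 20 days were below all others. The transcript rose at 5 days against 1 day (log2 change 0.33, SE 0.04, edgeR adjusted p = 4.22e-07), then fell at 10 days against 5 days (-0.19, SE 0.04, adjusted p = 0.000273) and at 20 days against 10 days (-0.21, SE 0.04, adjusted p = 0.000231). The first fall missed the threshold with upper-quartile factors (-0.11, edgeR adjusted p = 0.0265) and the second when scaled by library size (-0.11, adjusted p = 0.0474). Over the whole span, at 20 days against 1 day, the change was -0.07 (SE 0.04, edgeR adjusted p = 0.119). In RPKM both libraries of 20 days lay below those of 1 day. Scaled by library size, they (55.3 and 54.4 CPM) overlapped those of 1 day (50.9 to 54.7 CPM), and the change was 0.076.

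RagA is the amino acid dependent GTPase that recruits TORC1 to the lysosome, and its gene raga-1 (T24F1.1, chromosome II, 1266 exon bases) had the highest level of the 6 at every age. It measured 98.2, 98.8 and 99.5 RPKM at 1 day, 120.5, 123.0 and 119.8 RPKM at 5 days, 116.7, 115.4 and 113.7 RPKM at 10 days and 102.0 and 101.8 RPKM at 20 days. The ages did not overlap, although the whole range between the lowest and the highest library was narrow. The rise at 5 days against 1 day was 1.22-fold (log2 change 0.29, SE 0.03, edgeR adjusted p = 3.55e-08). The change at 10 days against 5 days, -0.07 (SE 0.03), did not pass (edgeR adjusted p = 0.0401) and was 0.01 with upper-quartile factors. The fall at 20 days against 10 days was -0.18 (SE 0.03, edgeR adjusted p = 7.85e-05), and it missed the threshold when scaled by library size (-0.07, adjusted p = 0.0587). Its level differed by 0.04 on the log2 scale at 20 days against 1 day (SE 0.03, edgeR adjusted p = 0.212). With library size scaling that value was 0.19 and passed (adjusted p = 2.96e-05), but the median of all genes tested then stood at 0.14, against -0.01 with TMM, and with a minimum of 100 counts in every library it was -0.00.

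Counted over the intervals, 6 of the 6 genes were called higher at 5 days against 1 day. At 10 days against 5 days, 4 were called higher and 1 lower, where 23.7% of all genes tested were called higher, 24.6% lower and 48.4% in all. At 20 days against 10 days, 2 were called higher and 2 lower, where the shares over all genes were 28.3%, 28.2% and 56.5%. At 20 days against 1 day, 4 were called higher and none lower, with 2 not called, where 38.5% of all genes tested were called higher and 76.5% in all. Most genes thus changed in most intervals, and a call as such did not set these genes apart. In size, the median log2 change of the 6 at 20 days against 1 day was 1.01, and the median of all genes tested was -0.01. That median pools the 4 genes that rose with the 2 not called. The 6 were also chosen with earlier results of these data known, so the difference is not independent evidence. Among all genes, the changes at 20 days against 1 day stood at percentile 79.8 for let-363, 84.9 for daf-15, 92.7 for rict-1 and 88.6 for rsks-1, but at 47.3 for rheb-1 and 52.0 for raga-1. Scaling by library size moved the share of calls that were higher at 20 days against 10 days to 63.7% (50.02% with TMM), and upper-quartile factors moved that of 10 days against 5 days to 61.7% (49.0% with TMM).

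**Figure D2:**
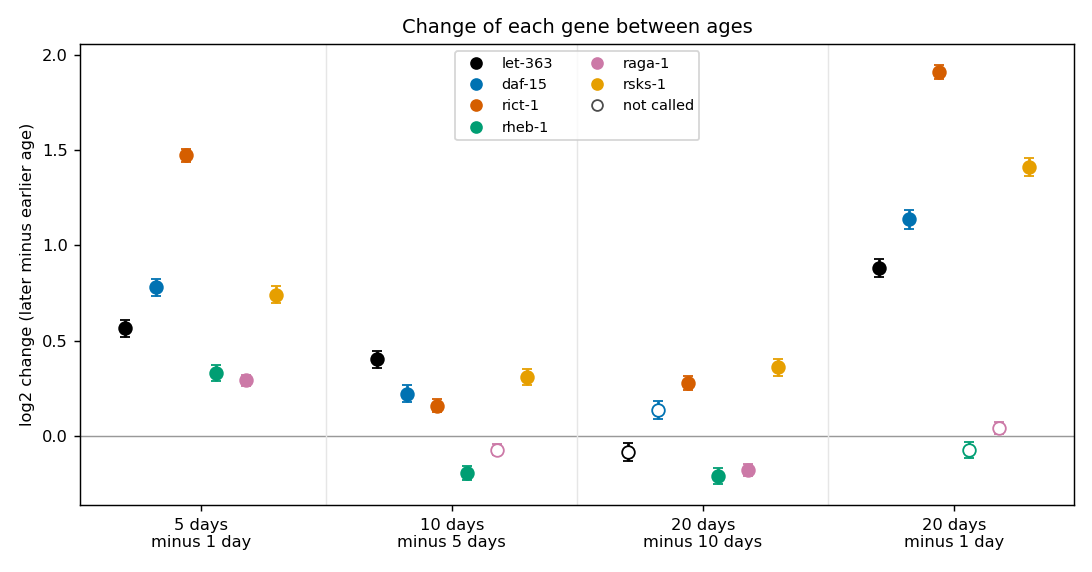
Log2 change of the 6 TOR genes (later minus earlier age) in the 3 successive intervals and over the whole span. Points are edgeR estimates, bars their SE, and open points were not called at an adjusted p under 0.01. All 6 rose at 5 days against 1 day, and rict-1 reached 1.91 over the whole span.

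Steady change with age was measured after the study's method, a mean Spearman's rho with age with a threshold of 0.75 in size. Here all 54 choices of 1 library per age were averaged instead of random ones, and CPM was used, which ranks a gene's libraries as RPKM by library size does. By this measure daf-15, rict-1 and rsks-1 had a rho of 1.0 and let-363 of 0.9, all rising, a class that held 27.1% of all genes tested. The values of 0.1 for rheb-1 and 0.2 for raga-1 put these in neither direction. With TMM scaling the rho of let-363 was 0.8 and that of rheb-1 was -0.4, so the sign of the rheb-1 value rested on the scaling.

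The order of the levels changed with age, since some transcripts rose and others did not. At 1 day, in RPKM, raga-1 (98.8 ± 0.629, SD, n = 3) came first, followed by rheb-1 (45.3 ± 1.12), rsks-1 (31.0 ± 1.63), daf-15 (28.3 ± 1.39), rict-1 (20.5 ± 0.310) and let-363 (19.6 ± 0.516). Of these neighbours, rsks-1 and daf-15 overlapped, as did rict-1 and let-363. At 5 days raga-1 (121 ± 1.68) was followed by rheb-1 (56.9 ± 2.32) and rict-1 (56.8 ± 0.931), which overlapped, then by rsks-1 (51.7 ± 3.06) and daf-15 (48.6 ± 2.66), which also overlapped, and by let-363 (29.0 ± 2.13). At 10 days rsks-1 (64.1 ± 0.681) and rict-1 (63.5 ± 0.820) overlapped behind raga-1 (115 ± 1.48), ahead of daf-15 (56.6 ± 1.69), rheb-1 (49.8 ± 1.01) and let-363 (38.3 ± 0.237). At 20 days no neighbours overlapped, and the order was raga-1 (102 ± 0.146, n = 2), rsks-1 (82.3 ± 1.07), rict-1 (76.9 ± 0.520), daf-15 (62.2 ± 1.36), rheb-1 (43.0 ± 0.220) and let-363 (36.1 ± 1.04). Among the 14571 tested genes with a length, let-363 stood at percentile 73.7 at 20 days and 63.8 at 1 day, rict-1 at 87.7 at 20 days and 64.5 at 1 day, and raga-1 at 91.7 at 20 days and 90.8 at 1 day. These orders rest on the annotated exon lengths.

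Ratios of transcript levels within a library do not depend on the scaling between libraries, and they were used to compare transcripts of the complexes. Amounts and activities of the complexes were not measured. The ratio of rict-1 to daf-15, the transcripts of the subunits that define TORC2 and TORC1, was above 1 in all libraries from 5 days on and below 1 in all 3 libraries of 1 day. It was 0.725 ± 0.0262 (SD, n = 3) at 1 day and 1.17 ± 0.0444 at 5 days, then 1.12 ± 0.0360 at 10 days and 1.24 ± 0.0186 at 20 days (n = 2). The side of 1 rested on the exon lengths of WBcel235, since the ratio of plain counts was 0.922 to 1.07 from 5 days on and 0.593 to 0.635 at 1 day. The separation of the later ages from 1 day did not, as a length enters as a constant factor. The ratio of rict-1 to let-363 was 1.046 ± 0.0139 at 1 day and 1.97 ± 0.110 at 5 days, then 1.66 ± 0.0115 at 10 days and 2.13 ± 0.0471 at 20 days. It thus went up, down and up again between successive ages, with no overlap between neighbouring ages. The ratio of daf-15 to let-363 moved less, at 1.44 ± 0.0336 at 1 day and 1.68 ± 0.0309 at 5 days, then 1.48 ± 0.0472 at 10 days and 1.72 ± 0.0122 at 20 days, and its ranges at 1 and 10 days overlapped. The ratio of rsks-1 to let-363 was 2.22 and 2.35 in the libraries of 20 days, and lay between 1.52 and 1.88 in the 9 libraries up to 10 days.

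The GTPase transcripts dropped steadily relative to that of the kinase. The ratio of raga-1 to let-363 was 5.05 ± 0.146 at 1 day and 4.20 ± 0.304 at 5 days, then 3.01 ± 0.0249 at 10 days and 2.83 ± 0.0775 at 20 days. That of rheb-1 to let-363 was 2.32 ± 0.0798, 1.97 ± 0.0652, 1.30 ± 0.0336 and 1.19 ± 0.0283 at the same ages. In both ratios no libraries of neighbouring ages overlapped. The ratio of rheb-1 to raga-1 stayed between 0.418 and 0.492 in all 11 libraries, so the GTPase transcripts kept their proportion more closely than either kept it with let-363. These ratios are descriptions, and with 2 or 3 libraries per age no test of a ratio was made.

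**Figure D3:**
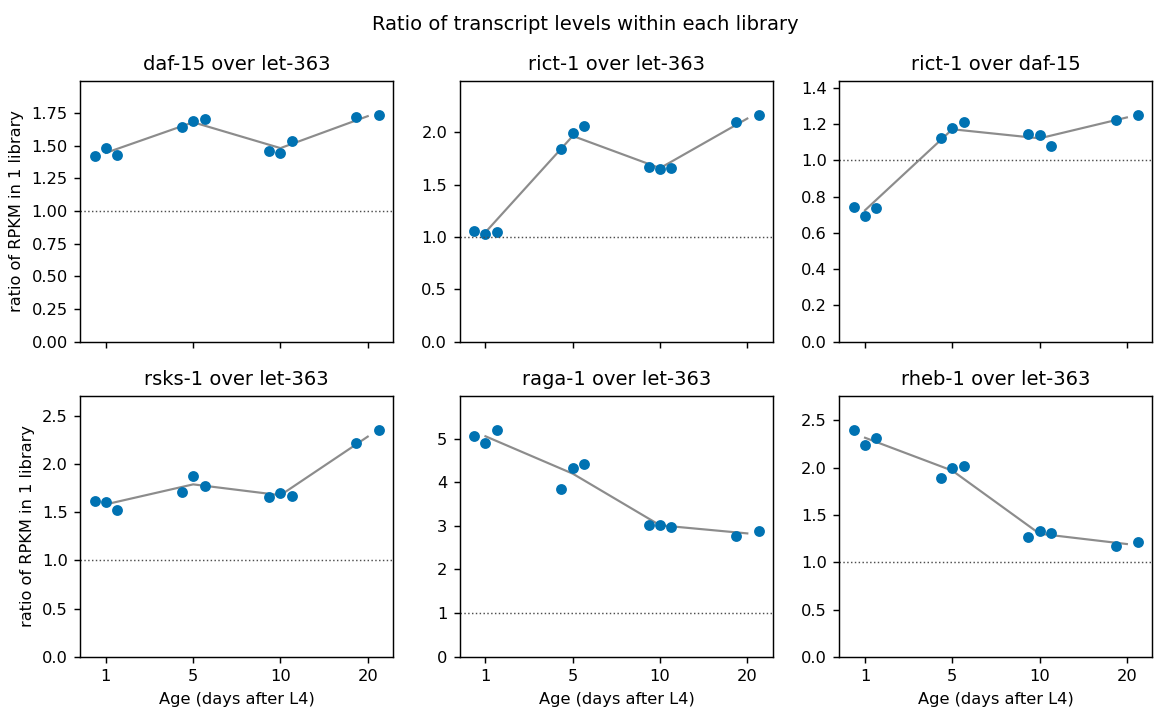
Ratio of RPKM of 2 TOR genes within each library (linear axes from 0) against age in days after L4. Points are libraries, lines join the means (n = 3, and 2 at 20 days), and the dotted line marks a ratio of 1. The ratio rict-1 over daf-15 was 1.22 to 1.25 at 20 days, against 0.695 to 0.743 at 1 day, while raga-1 over let-363 was 2.77 to 2.88 at 20 days, against 4.90 to 5.19 at 1 day.

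The other known parts of the complexes were examined next. Sin1, the further TORC2 subunit, is encoded by sinh-1, whose level was 11.4 ± 0.251 RPKM at 20 days, against 3.38 ± 0.120 RPKM at 1 day, a 3.38-fold rise (log2 change 1.76, SE 0.06, edgeR adjusted p = 1.56e-15). As for rict-1, most of it was present at 5 days, with a log2 change of 1.41 against 1 day (SE 0.06, edgeR adjusted p = 9.6e-14). LST8, encoded by mlst-8, binds the kinase in both complexes, and its transcript was 1.72-fold higher at 20 days than at 1 day (log2 change 0.79, SE 0.05, edgeR adjusted p = 4.04e-11). So all 5 transcripts of core subunits of the complexes, let-363, daf-15, rict-1, sinh-1 and mlst-8, were higher at 20 days than at 1 day, the TORC2 ones by the most. In that comparison 38.5% of all genes tested were called higher and 76.5% in either direction.

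The proteins that feed into TORC1 gave a mixed picture. The RagC gene ragc-1, partner of raga-1, was 1.13-fold higher at 20 days than at 1 day (log2 change 0.18, edgeR adjusted p = 0.000341), and flcn-1, encoding folliculin, which in mammals acts on RagC, was 1.91-fold higher (0.93, adjusted p = 1.3e-13). GATOR1 is the complex that switches RagA off. Its subunit genes nprl-3 and nprl-2 fell at 20 days against 1 day (-0.49 and -0.20, edgeR adjusted p = 1.55e-07 and 0.000193). The fall of nprl-2 did not pass with library size scaling (-0.05, adjusted p = 0.26). Sestrin, a stress-induced inhibitor of TORC1 encoded by sesn-1, fell by 0.37 on the log2 scale (edgeR adjusted p = 1.31e-05). Of the Ragulator genes, whose products anchor Rag GTPases to the lysosome, lmtr-3 fell (-0.36, edgeR adjusted p = 1.85e-07) and lmtr-2 did not pass (-0.10, adjusted p = 0.0916).

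The chaperone of PI3K-related kinases, Tel2, is encoded by clk-2, which was 1.57-fold higher at 20 days than at 1 day (log2 change 0.65, edgeR adjusted p = 1.22e-11). The AAA ATPase genes ruvb-1 and ruvb-2, whose products act with it in TOR assembly in mammals, changed by 0.02 and -0.03 and did not pass (edgeR adjusted p = 0.63 and 0.456), but passed as higher with library size scaling (0.17 and 0.12). Of these 12 complex and input genes, 5 rose, 4 fell and 3 did not pass at 20 days against 1 day, with a median log2 change of -0.00. Of all 14773 genes tested, 5689 rose and 5611 fell, so these counts did not set the list apart. In the interval of 5 days against 1 day 8 of the 12 rose and 1 fell, or 5 rose and 2 fell with upper-quartile factors. With TMM 34.5% of all genes tested rose there and 68.4% were called in either direction. At 20 days against 10 days 4 of the 12 fell and none rose, but 4 rose and 2 fell with library size scaling, and 3 rose and 3 fell with upper-quartile factors. The shares over all genes with TMM were 28.3% higher and 28.2% lower. The 5 that rose over the whole span include the core subunit genes sinh-1 and mlst-8.

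**Figure D4:**
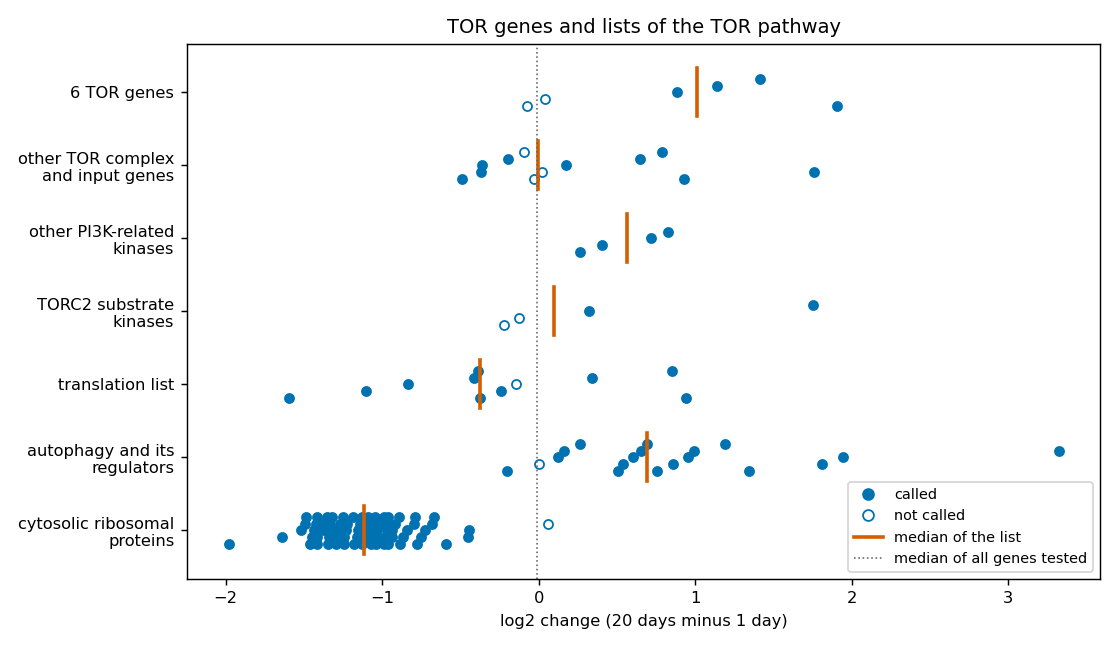
Log2 change at 20 days minus 1 day (x axis) of the 6 TOR genes and of lists of the TOR pathway. Points are genes, filled where called by edgeR at an adjusted p under 0.01, spread vertically only to separate them, and the orange bars are list medians. The translation list includes the intermediate filament gene ifa-1, its lowest point at -1.60. The ribosomal protein list centred at -1.11 and the autophagy list at 0.69, against -0.01 for all genes tested (dotted line).

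The kinases that TORC2 phosphorylates did not move as a group. Of the 4, 2 rose at 20 days against 1 day, akt-2 by 1.75 (SE 0.06, edgeR adjusted p = 7.11e-15) and akt-1 by 0.32 (SE 0.04, adjusted p = 3.09e-07) on the log2 scale. The others, pkc-2 (-0.13, edgeR adjusted p = 0.127) and sgk-1 (-0.22, adjusted p = 0.0127), did not pass. Since 38.5% of all genes tested rose and 76.5% were called in either direction, 2 of 4 did not set these kinases apart. Both pkc-2 and sgk-1 had fallen at 5 days against 1 day, by 0.44 and 0.55 on the log2 scale. At that age rict-1 and sinh-1 had risen. Of all 14773 genes tested, 5093 rose and 5019 fell in that interval. The level of akt-2 was low throughout, at 12.9 ± 0.246 RPKM at 20 days against 3.80 ± 0.312 RPKM at 1 day.

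Outputs of TORC1 were taken as a list of translation genes and a list of autophagy genes, and the difference between the lists was not tested. Of the 11 genes listed for translation, 3 rose and 7 fell at 20 days against 1 day, with a median log2 change of -0.37, where 5689 of all 14773 genes tested rose and 5611 fell. With library size scaling 3 of the 11 rose and 5 fell, with a median of -0.22. The list holds ifa-1, which encodes an intermediate filament protein and not a translation factor, and the ribosomal protein gene rps-6. With TMM scaling and without ifa-1, left out after its value was seen, 3 of 10 rose and 6 fell, with a median of -0.31. Without both ifa-1 and rps-6, 3 of 9 rose and 5 fell, with a median of -0.24. The highest were efk-1, the kinase that inhibits elongation factor 2 (0.94, edgeR adjusted p = 2.04e-14), and eef-2, elongation factor 2 itself (0.85, adjusted p = 2.32e-11). The lowest of the list were ifa-1 (-1.60, edgeR adjusted p = 1.06e-15) and rps-6, the ribosomal protein after which S6 kinase is named (-1.11, adjusted p = 1.3e-12). The level of rps-6 was 1136 ± 50.7 RPKM at 20 days against 2446 ± 141 RPKM at 1 day, while that of rsks-1 rose over the same span.

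The cytosolic ribosomal proteins fell nearly as a whole. Of 76 genes named rps- or rpl-, 74 were tested, and at 20 days against 1 day 73 fell, none rose and rpl-24.2 did not pass (0.06, edgeR adjusted p = 0.252), with a median log2 change of -1.11. The lowest were rpl-37 (-1.98) and rpl-29 (-1.64), and the highest besides rpl-24.2 was rpl-4 (-0.45). With library size scaling rpl-24.2 passed as higher (0.21) and the median was -0.97. All 74 fell at 5 days against 1 day, 12 fell at 10 days against 5 days, and 53 fell and 3 rose at 20 days against 10 days. Of all 14773 genes tested, 5611 fell at 20 days against 1 day and 5019 at 5 days against 1 day. The shares that fell were 24.6% at 10 against 5 days, more than for the 74, and 28.2% at 20 against 10 days. With upper-quartile factors 1 of the 74 fell and 1 rose at 10 days against 5 days, and with library size scaling 32 fell and 3 rose at 20 days against 10 days. The first interval was therefore that of the largest rise of rict-1, daf-15, let-363 and rsks-1 and of the widest fall of the ribosomal protein transcripts.

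Of 19 genes of autophagy and its transcriptional regulators, 17 rose at 20 days against 1 day, where 38.5% of all genes tested rose. Of the others in the list, 1 fell and 1 did not pass, and the median log2 change of the list was 0.69. The largest rise was that of sqst-1, the autophagy cargo receptor p62, at 164 ± 4.17 RPKM at 20 days against 16.3 ± 0.771 RPKM at 1 day, or 10.0-fold (log2 change 3.32, SE 0.04, edgeR adjusted p = 2.19e-21). The lipid transfer gene atg-2 followed (1.94, SE 0.05, adjusted p = 3.96e-17 in edgeR). The lowest were atg-3 (-0.20, edgeR adjusted p = 0.00335), whose fall was lost with library size scaling, and epg-8 (0.00, adjusted p = 0.938). At 5 days against 1 day 17 of the 19 rose and 2 fell, where 34.5% of all genes tested rose. The 2 that fell were pha-4 and hlh-30, transcription factor genes known to act in autophagy and longevity (-0.78 and -0.31, edgeR adjusted p = 1.22e-06 and 4.85e-06), and both were higher at 20 days than at 1 day (0.99 and 0.75).

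The study named rps-6, let-363 and mpk-1 as genes of the mTOR pathway that became network hubs with DOG, and mop-25.1 and ife-2 as hubs lost with DOG. They were chosen partly on these samples, so their direction is not independent evidence. Besides let-363, described above, mop-25.1 (0.39, edgeR adjusted p = 2.59e-08) and mpk-1 (0.17, adjusted p = 0.000342) rose at 20 days against 1 day, rps-6 fell as given above, and ife-2 (-0.14, edgeR adjusted p = 0.0132) did not pass, though it did by a narrow margin with upper-quartile factors (adjusted p = 0.00982).

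Genes with a profile most like that of each TOR gene were sought by Pearson's r of log2 CPM over the 11 libraries, among 8051 genes with at least 100 counts in every library. Libraries of 1 age lie close together, so that r reflects mainly the 4 age means, and it is given as a description. For let-363 they were psa-4, a SWI/SNF chromatin remodelling ATPase (r = 0.998), hsr-9 and mog-5, a DEAH-box helicase. For daf-15 they were sel-2, a neurobeachin relative (r = 0.999), ttll-4 and rsd-2. For rict-1 they were W07A8.2 (r = 0.999), C46C2.5 and K03H1.11, of which C46C2.5 rose by 2.34 on the log2 scale at 20 days against 1 day. For rsks-1 they were the DEAD-box helicase gene ddx-19 (r = 0.999), hoe-1 and Y48G10A.3. For rheb-1, whose range was narrow, the best was tag-342 (r = 0.985), ahead of F25H5.5 and R07G3.7, and for raga-1 it was R06C7.1 (r = 0.994), ahead of Y48G10A.2 and T05F1.2. The log2 changes of these last 6 genes at 20 days against 1 day lay between -0.08 and 0.10.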

How the data were processed

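RNA-seq libraries of whole C. elegans (50-base single reads) were processed by the authors with TopHat 1.4.1 per the submitters' processing notes, on genome WS220, and htseq-count (mode union, in which a read on more than 1 gene is not counted). The HTSeq version and the strand setting are not given in the sources used here. The deposited values are raw read counts per gene, without normalization or pooling of replicates. Genome WS220 differs from WBcel235, whose annotation gave exon lengths, so no coordinates are printed and chromosomes are those listed with the counts.

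From the counts, RPKM was computed with TMM-scaled library sizes (factors 0.946 to 1.076) and the summed exon length. Ages were compared with edgeR 4.0.16 (R 4.3.3), quasi-likelihood test, all 11 libraries in 1 fit without covariates, genes with at least 100 counts in total, Benjamini-Hochberg adjustment and a threshold of 0.01. The common biological coefficient of variation of edgeR was 4.14%, a spread between libraries that may be technical. Whether it or depth limits the precision, with 2 or 3 libraries per age, was not tested. The fit was tested on simulated counts with 200 changed genes at 20 days only. Far more genes were called in these data, so that test says nothing on the scaling between ages. DESeq2 1.42.0, other scalings and filters, a replicate block, fits of 2 ages and leaving out each library were alternatives. The members and lists were chosen with earlier results of these data known. Genes are named as TOR members, complex and input genes, or genes that gained or lost hub status in the study, as the 2 highest and 2 lowest of each other list at 20 days against 1 day, or as the 3 most alike in profile. An alternative without ifa-1, or without ifa-1 and rps-6, in the translation list was chosen after seeing the data. In the text pha-4 and hlh-30 were named after their values were seen. A neuron marker with no row of its own was left out. Of the list genes, 8 were matched through the RefSeq table of names.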

Additional observations from a re-analysis of the deposited data

How the results depend on the processing

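Of 432 member values under the alternatives, 419 kept their direction and side of the threshold, 6 newly passed it, 3 no longer passed and 4 changed sign. The 432 include fits that left out a library of neither compared age. Their log2 change could hardly move, only the shared spread could, so their agreement says little. For let-363 at 5 days against 1 day it was 0.5650 without replicate 1 of 10 days, against 0.5649 with all libraries. The sign changes were those of changes that had not passed: raga-1 at 10 days against 5 days with upper-quartile factors (0.013), let-363 at 20 days against 10 days with library size (0.019), rheb-1 at 20 days against 1 day with library size (0.076) and raga-1 in the same comparison with at least 100 counts in every library (-0.0039). With that filter 8057 genes were tested, and by its construction the numbers called were lower, 6057 (10112 with 100 counts in total) at 5 days against 1 day, 4855 (8349) at 20 days against 10 days and 6759 (11300) at 20 days against 1 day. Library size put the median log2 change of all genes at 0.14 for 20 days against 1 day and 0.11 for 20 days against 10 days, and upper-quartile factors put it at -0.13 for 5 days against 1 day. Leaving out 1 library at a time, the log2 change at 20 days against 1 day was 0.85 to 0.91 for let-363, 1.11 to 1.18 for daf-15, 1.90 to 1.92 for rict-1 and 1.37 to 1.45 for rsks-1. Replicate numbers did not pair the libraries (r of the deviations of same-numbered libraries -0.268 to 0.178 over 15 pairs), and with the replicate number as a block 11063 genes and 4 members were called at 20 days against 1 day, 8132 genes and 4 members at 20 days against 10 days, 7139 genes and 5 members at 10 days against 5 days and 10076 genes and 6 members at 5 days against 1 day.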

Other observations

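The other PI3K-related kinases of the worm were also higher at 20 days than at 1 day, in 4 of 4 genes. Over all genes tested, 38.5% were called higher and 76.5% in either direction. The transcript of trr-1, which encodes TRRAP, a family member of histone acetyltransferase complexes that lacks kinase activity, rose by 0.83 on the log2 scale (SE 0.04, edgeR adjusted p = 2.5e-12), and smg-1, which acts in nonsense-mediated decay, by 0.72 (SE 0.04, adjusted p = 1.09e-11). The DNA damage kinases atl-1 and atm-1 rose by 0.41 and 0.26 (edgeR adjusted p = 1.21e-07 and 0.000627). Their median log2 change was 0.56, and let-363 itself was at 0.88. In levels, trr-1 measured 24.8 ± 0.430 RPKM at 20 days against 14.0 ± 0.761 RPKM at 1 day, and smg-1 23.6 ± 0.175 RPKM against 14.3 ± 0.421 RPKM. At 20 days against 10 days 3 of the 4 fell, or 1 with library size scaling and 2 with upper-quartile factors. Of all genes tested, 28.2% fell in that interval with TMM. Among the 4 the change of atm-1 was the largest (-0.43, edgeR adjusted p = 3.58e-06). The change of let-363 in that interval, -0.08, did not pass.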
